A study of Ovis aries with 22 samples.

Results

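Gene expression in the cardiac septum of sheep, the muscle that divides the ventricles, was compared between fetuses at 130 days of gestation and fetuses at term, given as 145 days. RNA from 6 fetuses at 130 days and from 8 at term was measured on 14 of the 22 one-colour Cy3 arrays of the series. All 14 arrays carrying one of these labels were used, and the arrays of lambs were left out of the fit. No ewe and no fetus had been treated, and no ewe was ill or close to labour. Whether any of the fetuses were siblings is not stated in the labels, so the p-values measure the spread between these samples. Values are log2 signals minus the 75th percentile of the array, so 0 is the level below which 75 percent of its probes lie, and a change is term minus 130 days.

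Heart muscle cells of the fetus live on glucose and lactate, at low oxygen tension, and many of them still divide. Towards birth they stop dividing, fill with mitochondria and contractile protein, and prepare to take up and burn fatty acids, a change driven in part by the rise of cortisol before labour. Fetal blood also passes through the tissue with its own haemoglobins and its own white cells, so their transcripts are part of what a piece of septum contains. In a piece of tissue, fewer cells of one type and less RNA per cell cannot be told apart.

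Of 12278 genes or unnamed transcripts that were measurable, 2261 (18.4%) were called different at an adjusted p below 0.05 (limma with the slide as a block, Benjamini-Hochberg), 1291 (10.5%) higher at term and 970 (7.9%) lower. Among the 746 with a gene symbol, 175 (23.5%) were called, 97 (13%) higher and 78 (10.5%) lower, and 2086 calls fell on transcripts without one. The groups did not overlap at all in 713 features (5.81%). Changes beyond 2-fold were mostly falls, with 303 called lower (2.47%) and 114 higher (0.928%). Among the 3070 brightest features 518 were called higher and 169 lower, against 231 and 237 among the 3070 dimmest. Of all calls, 57.1% were higher at term. That share was 76.0% after normexp background correction and 70.2% after scaling to the array median, which moved the median change of all features from 0.02 to 0.14 and 0.10, and it was 46.0% when all 22 arrays were fitted without the block.

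Named genes fell into groups that moved in different directions. Interferon-response genes and markers of white blood cells were called lower, and genes of mitochondrial energy supply and glucose use were called higher. Of the 9 measured genes of the oxidative phosphorylation list 7 were called higher and 0 lower. That list also holds nucleotide carriers of the inner mitochondrial membrane and VDAC1, a pore of the outer one. Of 18 genes of glucose uptake, glycolysis and glycogen use 9 were higher and 1 lower. Of 10 interferon-response genes 5 were called lower and 0 higher, and of 22 leukocyte markers 8 were lower and 0 higher. In contrast, 1 of 24 genes of the ribosome and translation was called, and none of the 5 endothelial markers (limma, smallest adjusted p = 0.0696, 2 at an unadjusted p under 0.05). The median changes of these lists were 0.64, 0.42, -1.25, -0.73, 0.12 and -0.09, in the order given, beside 0.02 over all features.

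**Figure D1:**
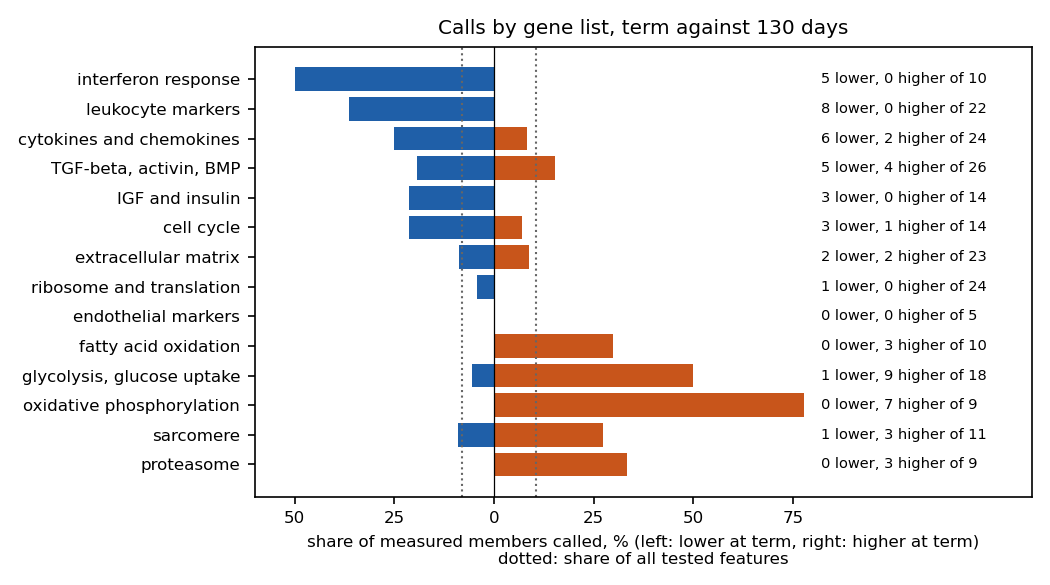
Share of the measured members of each gene list called lower (left, blue) or higher (right, orange) at term, in percent, with the counts written at the right and the shares of all tested features (7.9% lower, 10.5% higher) as dotted lines. Among features with a symbol, as all list members are, the shares were 10.5% lower and 13% higher. The interferon list shows 5 lower of 10, and the oxidative phosphorylation list 7 higher of 9.

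The 2 heart muscle markers that could be named on this array, TPM1 and MB, were well above background on all 14 arrays, and the other listed cardiomyocyte markers were not among the named genes measured. The arrays separated by age along principal component 1, with 30.9% of the variance. Fetuses at 130 days scored between -42.74 and -2.83 and term fetuses between 6.90 and 54.21. Within the groups, 130-day fetus 2 lay nearest to term and term fetus 1 lay farthest out, at 54.21 on the first and -41.79 on the second component. Slide 4 carried term fetuses 6 to 8 and no 130-day array, so the fitted changes rest on slides 1 to 3, and the arrays of slide 4 add only to the estimate of the spread. The 130-day arrays were brighter, with a 75th percentile of 9.93 to 10.31 on the log2 scale of the processed signal against 9.56 to 9.90 at term, without overlap. Relative to that percentile, the dimmest probe well above background lay at -6.94 to -6.26 on the 130-day arrays and at -6.49 to -5.85 at term. The median of the negative controls lay at -9.08 to -8.35 on the 130-day arrays and at -8.55 to -7.91 at term. Leaving out both 130-day fetus 3 and term fetus 1, a setting added after the data were seen, gave 1100 calls, 620 higher and 480 lower.

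**Figure D2:**
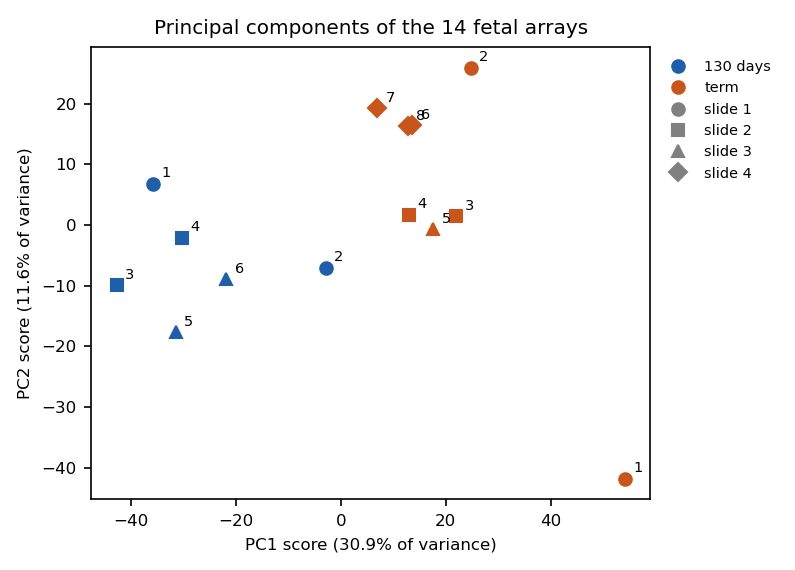
Scores of 14 fetal arrays on principal components 1 (horizontal, 30.9% of the variance) and 2 (vertical, 11.6%), without units, with each point 1 array, its colour the age, its shape the slide and its number the fetus. The groups do not overlap on the first component, where 130-day fetus 2 (-2.83) and term fetus 7 (6.90) lie closest to each other.

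The largest fall among the interferon-response genes was that of CXCL10, a chemokine that draws T cells and is made in response to interferon gamma. The probes of the genes with the largest changes were 60 bases long, and their last 30 bases are printed here from the deposited array files, 5′ to 3′, to show which stretch each value reads. Capitals mark AATAAA, the usual signal for polyadenylation, where it was found. Searched as written, it stood in the last 30 bases of 579 of 15008 probes (3.86%), and on either strand in 851 (5.67%).
CXCL10: ctttccaaAATAAAagtaatgttctctccc
ISG15: tggatgatgagcacccgctgggggaatacg
MX1: caatttgtaatacagttctttctaccagaa

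CXCL10 signal ranged from -2.21 to 3.39 at 130 days (median -1.40) and from -7.91 to -3.57 at term (median -4.35). Every 130-day fetus lay above every term fetus, and at term the probe was well above background on 6 of 8 arrays. The fitted fall was 5.17 ± 0.91 (SE; limma, adjusted p = 0.00567), against 3.05 after normexp correction, which raises dim values, and 3.26 in the authors' deposited values. As 2 term arrays were not well above background, its size is uncertain and no fold is given. ISG15, a ubiquitin-like protein that interferon induces and that is attached to other proteins, ranged from 1.62 to 5.40 (median 1.95) and then from -3.02 to 1.16 (median -0.13). The groups again did not overlap, and ISG15 fell 12-fold, by 3.59 ± 0.62 (adjusted p = 0.00533). MX1, a GTPase that blocks replication of RNA viruses, lay at 0.78 to 3.86 (median 1.18) and at -2.01 to 1.06 (median -0.31). Here the groups overlapped, through the highest term fetus and the lowest 130-day fetus, and MX1 fell 5.89-fold, by 2.56 ± 0.45 (adjusted p = 0.00567). The transcription factor IRF1 fell by 1.73 ± 0.32 (adjusted p = 0.00627), from a median of -2.11 to -3.57. Its change was -1.07 after normexp correction and -1.21 in the authors' deposited values. CXCL10, ISG15, MX1 and IRF1 kept their calls under each of 28 other settings of block, arrays, scaling or filter.

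All 10 genes of the interferon list had a negative change, and 7 of them an unadjusted p under 0.05 (34.4% of all features had one). MX2, a relative of MX1, changed by -1.54 ± 0.50 (adjusted p = 0.0532) and did not pass. IRF3, a factor that switches on interferon genes, was called with a fall of 0.43 ± 0.13 (adjusted p = 0.0357), a call that ended in 9 of 14 fits that left 1 array out (highest adjusted p = 0.0892). The genes of both chains of the type I interferon receptor changed by -0.04 and -0.01. Of the 6 arrays at 130 days, fetus 3 was the highest for 10 of these 10 genes, against 10.9% of all features. Without that fetus the changes were -4.26 for CXCL10 (adjusted p = 0.0083), -3.01 for ISG15 (adjusted p = 0.0083), -2.10 for MX1 (adjusted p = 0.00761) and -1.55 for IRF1 (adjusted p = 0.0168), and these 4 were the calls shared by both fits. IRF3 was not called without it (adjusted p = 0.0837). Why that fetus stood high was not tested.

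Of 22 measured markers of white blood cells 8 were called lower, and 19 had a negative change. The share called lower was 7.9% of all features and 10.5% of those with a symbol. The summed linear level of the list ran from 3.98 to 10.7 at 130 days (median 4.63) and from 2.67 to 3.81 at term (median 3.28). LYZ, the lysozyme of phagocytes, ranged from -4.03 to -1.49 (median -3.23) and from -5.60 to -3.84 (median -4.27). Only the edges of the groups overlapped, and LYZ fell by 1.65 ± 0.29 (adjusted p = 0.0058). The change was -0.75 after normexp correction and -0.96 in the authors' deposited values, so its size is uncertain and no fold is given. CD86, which presenting cells use to costimulate T cells, had medians of -2.93 and -4.02 with no overlap and fell by 1.49 ± 0.29 (adjusted p = 0.00753). The other CD86 probe changed by -0.67 ± 0.48. CTSS, the protease that frees class II molecules for antigen loading, also separated the ages completely, with medians of -0.38 and -1.59 and a fall of 1.63 ± 0.33 (adjusted p = 0.00885). ITGB2, the common beta chain of the leukocyte integrins, ranged from -2.18 to -0.45 and from -2.78 to -2.24, and fell by 1.14 ± 0.22 (adjusted p = 0.00748). FCER1G, a signalling chain of Fc receptors, fell by 1.36 ± 0.31 (adjusted p = 0.0153), and CD40, a receptor of antigen-presenting cells, by 1.24 ± 0.28 (adjusted p = 0.0135). The changes of CD86 and CD40 were -0.73 and -0.75 after normexp correction, and -0.91 and -0.86 in the authors' deposited values. The sizes of these falls are therefore uncertain too.

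FCGR1A, the high-affinity receptor for immunoglobulin G, fell by 2.14 ± 0.53 (adjusted p = 0.0197) between medians of -3.84 and -5.62. It was dim at term, well above background on 7 of 8 arrays, and its change was -0.64 (adjusted p = 0.138) after normexp correction. It also lost its call without term fetus 3 (adjusted p = 0.0526). CYBA, a subunit of the phagocyte oxidase, fell by 0.57 ± 0.16 (adjusted p = 0.0324), a call that ended in 7 of 14 fits that left 1 array out (highest adjusted p = 0.0686). The phagocyte markers CD14 and ITGAM did not pass, with changes of -0.09 ± 0.13 (adjusted p = 0.647) and -0.88 ± 0.66 (adjusted p = 0.37). The T cell marker CD3E overlapped between the ages, at -3.45 to -1.82 and -5.00 to -2.14, and did not pass (change -0.79 ± 0.36, adjusted p = 0.143). At 130 days fetus 3 was the highest for 13 of the 22 leukocyte markers, and 7 of them were called lower without it. CD40 lost its call when both 130-day fetus 3 and term fetus 1 were left out (adjusted p = 0.0693).

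**Figure D3:**
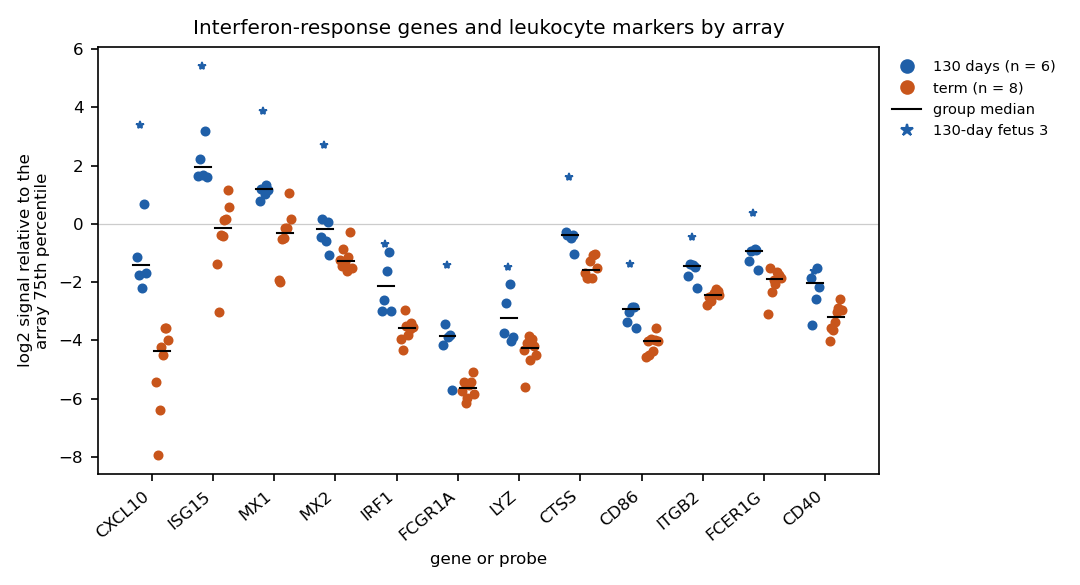
Log2 signal minus the 75th percentile of its array (vertical) for interferon-response genes and leukocyte markers (horizontal), 1 point per array, 6 at 130 days in blue and 8 at term in orange, with group medians as lines and 130-day fetus 3 as a star. That fetus is at 3.39 for CXCL10 and 5.40 for ISG15, and the groups do not overlap for CXCL10, ISG15, CTSS, CD86 and ITGB2.

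Genes of antigen presentation gave 2 calls among 9 measured, both lower, and 7 of 9 changes were negative. Among features with a symbol 23.5% were called, 10.5% of them all lower at term. The calls were MHCII-DRB1 and CTSS, which is also counted among the leukocyte markers. Of the 130-day arrays fetus 3 was the highest for 6 of the 9, and both calls held without it. MHCII-DRB1, a beta chain of the class II molecules that show peptides to helper T cells, lay at -0.46 to 2.48 (median 0.10) at 130 days and at -3.62 to -0.39 (median -0.97) at term. The groups overlapped slightly, and it fell by 2.09 ± 0.50 (adjusted p = 0.0181). Probes for sheep MHC class I sequences without a symbol of their own, picked out by their descriptions after the values were seen, were lower at term in 12 of 12 measured, with changes from -2.49 to -0.80 (median -1.42), and 4 of them were called. The same 130-day fetus 3 was the highest of its group for 11 of these 12 probes, and without it 0 of the 12 were called (limma, smallest adjusted p = 0.0732). These sequences are alleles and copies of one gene family, so the probes can read each other's transcripts and do not count as 12 separate genes.

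Of the cathelicidins, antimicrobial peptides of neutrophils, CATHL1B, CATHL3 and BAC5 were called lower at term, and SC5 did not pass (change -0.92 ± 0.45, adjusted p = 0.171). The last 30 bases of the probes of the called genes are shown because the genes are close relatives.
CATHL1B: ggatctgaaaAATAAActcttgtgacatga
CATHL3: gacggtgaaaAATAAAttctggtgaagaca
BAC5: agtcagcatccaaaaAATAAAatcttgtgg
The longest run shared by the whole probes was 11 bases for CATHL3 and CATHL1B and 9 bases for BAC5 with either. CATHL1B ranged from -1.14 to 1.66 (median 0.91) and from -4.75 to -0.05 (median -1.77), and fell 9.88-fold, by 3.30 ± 0.63 (adjusted p = 0.00718). The fall was uneven over the slides, 4.96 on slide 1, which held the lowest 2 term arrays, 2.33 on slide 2 and 2.28 on slide 3. CATHL3 fell by 2.91 ± 0.73 (adjusted p = 0.0209) and BAC5, known as bactenecin 5, by 2.74 ± 0.70 (adjusted p = 0.023), and on slides 2 and 3 the differences of both were between -1.70 and -1.16. Without the slide block CATHL3 and BAC5 did not pass (adjusted p = 0.0817 and 0.0755), nor without 130-day fetus 1 (adjusted p = 0.0508 and 0.0572), and BAC5 also lost its call without term fetus 1.

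Complement component C3, the hub of all complement pathways, fell by 1.72 ± 0.45 (adjusted p = 0.0247), from a median of -0.46 to -2.15 with overlap. The call ended without 130-day fetus 1 or 3 or term fetus 1 or 3 (highest adjusted p = 0.0652). C5AR1, the receptor for the chemoattractant C5a, fell by 1.27 ± 0.31 (adjusted p = 0.0195), and it lost its call without term fetus 3 (adjusted p = 0.0507). Of 8 measured genes of prostaglandin and leukotriene synthesis, transport and reception 3 were called lower and 0 higher. Among features with a symbol 10.5% were called lower. In this list 4 of the 8 changes were positive, and the median was 0.01. PTGS2, the inducible cyclooxygenase, lay at -3.76 to -1.37 (median -3.09) and at -4.90 to -2.44 (median -4.18) with wide overlap, and fell by 1.19 ± 0.25 (adjusted p = 0.0101). Its change was -0.48 (adjusted p = 0.0533) after normexp correction, and -1.15 (adjusted p = 0.0529) without the slide block. PTGS1, the constitutive enzyme, fell by 0.57 ± 0.16 (adjusted p = 0.0339) and ALOX5AP, which hands arachidonate to 5-lipoxygenase, by 0.95 ± 0.26 (adjusted p = 0.0299). The PTGS1 call ended in 8 of 14 fits that left 1 array out (highest adjusted p = 0.118), and the ALOX5AP call without 130-day fetus 1 or 5 or term fetus 3 or 4 (highest adjusted p = 0.0741).

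Of 24 cytokine and chemokine genes 6 were called lower and 2 higher, beside 10.5% and 13% of features with a symbol. Without 130-day fetus 3 those called lower were 2. Several of them were close to background. IL10, an anti-inflammatory cytokine, separated the ages at -5.25 to -3.87 and -6.80 to -6.05, and fell by 1.75 ± 0.26 (adjusted p = 0.00393). At term it was well above background on 4 of 8 arrays, and the change was -0.24 (adjusted p = 0.232) after normexp correction. IL18, a cytokine of macrophages, fell by 1.44 ± 0.32 (adjusted p = 0.0136), against -0.33 (adjusted p = 0.128) after that correction, and 1 of its other probes changed by 0.12. IFNG, interferon gamma itself, went the other way, from -4.77 to -4.30 at 130 days to -4.08 to -3.51 at term without overlap, a rise of 0.77 ± 0.12 (adjusted p = 0.00396). The probe is dim, and the background of the term arrays, set by the negative controls above, lay higher relative to the percentile. The part of that shift in the rise was not tested. CXCL1, a neutrophil chemokine, rose by 0.39 ± 0.10 (adjusted p = 0.0197) with no overlap, but by 0.12 (adjusted p = 0.26) in the authors' deposited values and without a call when 130-day fetus 1 or term fetus 5 was left out (highest adjusted p = 0.0612).

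Transcripts of the haemoglobin system fell steeply. The sequences below are the last 30 bases of the 4 probes, shown because globin genes resemble each other.
HBB: tttctctttgctgcacaaaactaatctttt
HBB second probe: agctgagtgagctgcactgtgataagctgc
fetal beta globin: gtgttcactagcagctacacaaacagacac
AHSP: ggtgagcttctacatcaactattacaagaa
AHSP, the chaperone that holds free alpha globin in red cell precursors, lay at -3.22 to -2.39 (median -2.55) at 130 days and at -7.72 to -3.09 (median -5.89) at term, where 5 of 8 arrays were well above background. The fitted fall was 4.00 ± 0.35 (adjusted p = 0.000317), and it was 3.56, 4.20 and 4.37 on slides 1, 2 and 3. After normexp correction it was 1.17 (adjusted p = 0.000117) and in the authors' deposited values 1.40, so the direction held while the size depends on how values near background are treated, and no fold is given. HBB, beta globin, ranged from 3.54 to 5.63 (median 5.25) and from 1.20 to 5.13 (median 3.10), and fell 5.10-fold, by 2.35 ± 0.34 (adjusted p = 0.00356). A second HBB probe, without a single symbol in the files, fell by 2.80 ± 0.27 (adjusted p = 0.000484). The probe described as the fetal beta subunit, which forms the haemoglobin of the fetus, fell by 3.59 ± 0.70 (adjusted p = 0.00807), from a median of -0.78 to -4.42. These 2 probes were chosen from their descriptions after the values were seen.

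The ages overlapped for all 4 of these probes, and for HBB and AHSP the term fetuses on slide 4 lay nearest to the 130-day fetuses. Term fetuses 6 to 8, all on that slide, had HBB at 4.76, 5.13 and 4.65 and AHSP at -3.79, -3.09 and -4.33, while the other 5 term fetuses had HBB at 1.20 to 3.14 and AHSP at -7.72 to -5.78. Without the slide block, which lets slide 4 enter the change, AHSP fell by 2.93 (adjusted p = 0.00676) and HBB changed by -1.54 (adjusted p = 0.0679). Slide 4 and these fetuses cannot be told apart.

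**Figure D4:**
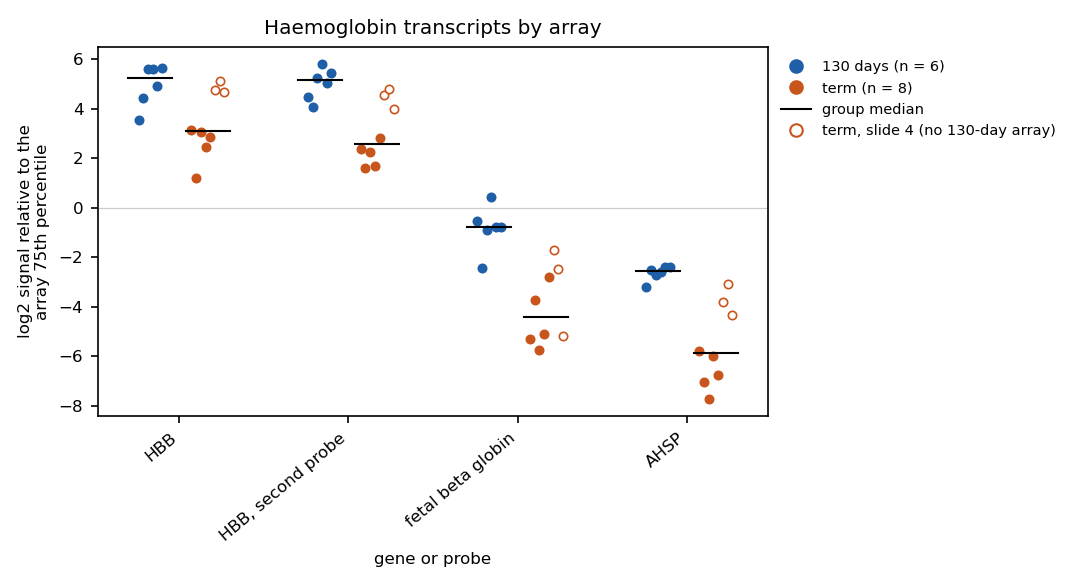
Log2 signal minus the 75th percentile of its array (vertical) for HBB, its second probe, fetal beta globin and AHSP (horizontal), 1 point per array, blue at 130 days and orange at term, with group medians as lines and open points for term fetuses on slide 4. The open points for HBB, at 4.65 to 5.13, lie within the range of the 130-day fetuses, above the other term fetuses.

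Signals of growth factor genes were lower in part. IGFBP2, which binds insulin-like growth factors in the circulation and tissue fluid, had the largest fall of that family, and its probe ends in the bases that follow.
IGFBP2: cttaagattaaaggaaggaaaAATAAAaaa
It lay at 1.59 to 3.72 (median 3.57) at 130 days and at 0.65 to 2.18 (median 1.47) at term. Apart from 130-day fetus 2, at 1.59, each 130-day fetus was above each term fetus, and IGFBP2 fell 3.75-fold, by 1.91 ± 0.36 (adjusted p = 0.00718). IGF2, the main fetal growth factor of the family, ranged from 6.65 to 7.22 (median 6.79) and from 3.03 to 6.61 (median 6.1). The groups did not overlap, but term fetus 1 stood at 3.03 and the rest of its group at 5.89 or more, and IGF2 did not pass (change -1.21 ± 0.49, adjusted p = 0.105). Its clearing receptor IGF2R changed by -0.61 ± 0.23 (adjusted p = 0.0854). IGF1 and the binding protein IGFBP4 were called lower, by 0.83 ± 0.26 (adjusted p = 0.0438) and 0.57 ± 0.18 (adjusted p = 0.0448), and each lost its call in 11 of 14 fits that left 1 array out (highest adjusted p = 0.115 and 0.11). In all, 3 of 14 genes of the IGF and insulin list were lower and 0 higher. Among features with a symbol 10.5% were called lower and 13% higher, and the list's median was -0.02.

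Among 26 genes of the TGF-beta superfamily 5 were called lower and 4 higher, beside 10.5% and 13% of features with a symbol. Of the ligands, INHBA, the subunit of activin A, lay at -1.62 to 0.39 (median -0.07) and at -3.36 to -0.77 (median -2.29), overlapping through 130-day fetus 2, and fell 3.64-fold, by 1.86 ± 0.40 (adjusted p = 0.0115). Without both 130-day fetus 3 and term fetus 1 its adjusted p was 0.0553. TGFB2, a growth factor of valve and septum formation, fell by 1.01 ± 0.23 (adjusted p = 0.0159) with no overlap, and TGFB1, the main profibrotic form, by 0.88 ± 0.25 (adjusted p = 0.0354). The TGFB1 call ended without 130-day fetus 1, 4 or 6 or term fetus 3 (highest adjusted p = 0.0948). Of the receptors, ACVR1, a type I receptor for bone morphogenetic proteins and activin, fell from a median of -1.78 to -2.59 without overlap, by 0.86 ± 0.14 (adjusted p = 0.00445). TGFBR2, the receptor that binds TGF-beta first, rose from a median of -2.16 to -1.84, also without overlap, by 0.54 ± 0.11 (adjusted p = 0.00764). Further calls were weak. The receptor BMPR1B rose by 0.97 ± 0.29 (adjusted p = 0.038) and the signal carrier SMAD3 by 0.90 ± 0.26 (adjusted p = 0.035), while SMAD2, another carrier, fell by 0.38 ± 0.11 (adjusted p = 0.0343). These ended in 8, 7 and 7 of 14 fits that left 1 array out (highest adjusted p = 0.0908, 0.0903 and 0.0967). The other SMAD3 probe changed by 0.26 ± 0.39.

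Of 14 measured genes of cell division 3 were called lower and 1 higher, beside 10.5% and 13% of features with a symbol. In this list 11 of 14 changes were negative, and the median was -0.41. LMNB1, lamin B1 of the nuclear envelope, fell by 1.1 ± 0.33 (adjusted p = 0.0395) and the cyclin-dependent kinase CDK4 by 0.33 ± 0.10 (adjusted p = 0.0423). CCND3, a D cyclin that activates CDK4, rose by 0.33 ± 0.10 (adjusted p = 0.0412). The calls of LMNB1, CDK4 and CCND3 ended in 13, 11 and 12 of 14 fits that left 1 array out (highest adjusted p = 0.0926, 0.11 and 0.0852). The summed linear level of the list was 32.2 to 37.4 at 130 days and 22.4 to 30.03 at term, without overlap.

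Of 23 matrix genes 2 were called higher and 2 lower, shares close to the 10.5% and 7.9% of all features. DCN, the collagen-binding proteoglycan decorin, separated the ages at 5.54 to 5.99 and 4.85 to 5.5 and fell by 0.53 ± 0.13 (adjusted p = 0.0173). ITGB5, an integrin chain that binds vitronectin, fell by 0.70 ± 0.15 (adjusted p = 0.012), again without overlap. LGALS1, the secreted lectin galectin-1, had medians of 2.89 and 1.63 and fell 2.71-fold, by 1.44 ± 0.27 (adjusted p = 0.00717). TIMP3, an inhibitor of matrix proteases, rose by 0.63 ± 0.19 (adjusted p = 0.0415), and that call ended in 12 of 14 fits that left 1 array out (highest adjusted p = 0.11). DCN is also the single fibroblast marker called, of 5 measured.

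Many of the measured genes that supply the heart with energy were called higher, as counted for each list. SLC2A4 encodes GLUT4, the glucose carrier that insulin moves to the cell surface, and SLC25A4 and SLC25A6 encode adenine nucleotide translocases, which trade ATP for ADP across the inner mitochondrial membrane. Their probes end as follows, and the longest run that SLC25A4 and SLC25A6 share over the whole probe is 6 bases.
SLC2A4: actaaatgtatatatagagagatccatata
SLC25A4: ggatgctgcctgacccgaagaatgtgcaca
SLC25A6: gtggactgctggcggaaatcctcaagacga

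SLC25A4, the form of heart and skeletal muscle, ranged from 7.50 to 8.53 (median 7.90) at 130 days and from 8.58 to 9.14 (median 8.72) at term. All term fetuses lay above all 130-day fetuses, and it rose by 0.91 ± 0.17 (adjusted p = 0.0061). The change was 0.59 after quantile normalization and 0.56 in the authors' deposited values, so the size of the rise depends on the scaling. SLC25A6, found in many tissues, was at 4.32 to 5.08 (median 4.67) and 5.38 to 6.11 (median 5.60), without overlap, and rose 1.99-fold, by 0.99 ± 0.15 (adjusted p = 0.00396). The third translocase on the array, SLC25A5, changed by 0.13 (adjusted p = 0.538). Of the 4 subunits of ATP synthase measured 3 rose, and ATP5MC2 changed by 0.24 (adjusted p = 0.122). ATP5PD, in its stalk, rose by 0.78 ± 0.13 (adjusted p = 0.00499), ATP5MC1, in the ring that turns with the protons, by 0.70 ± 0.17 (adjusted p = 0.0184) and ATP5PO, also in the stalk, by 0.58 ± 0.14 (adjusted p = 0.0199), and none of these overlapped between the ages. ATP5MC1 and ATP5PO lost their calls without 130-day fetus 1 (adjusted p = 0.0521 and 0.0564), and ATP5PO also without term fetus 3 (adjusted p = 0.0527). After quantile normalization neither passed (adjusted p = 0.0864 and 0.0876). In the authors' deposited values ATP5PO changed by 0.27 and did not pass (adjusted p = 0.105). NDUFA12, an accessory subunit of complex I, rose from a median of 4.99 to 5.73 without overlap, by 0.73 ± 0.11 (adjusted p = 0.00392). That rise was 0.52 after quantile normalization and 0.48 in the authors' deposited values. COX5A, of complex IV, and VDAC1, the pore of the outer membrane, rose by 0.64 ± 0.19 (adjusted p = 0.0365) and 0.36 ± 0.11 (adjusted p = 0.0428), calls that ended in 11 of 14 fits that left 1 array out (highest adjusted p = 0.132 and 0.112).

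The summed linear level of the oxidative phosphorylation list was 548.6 to 922 at 130 days (median 719) and 991 to 1337 at term (median 1107), without overlap. In this and the other summed levels bright genes weigh most, and none was computed under other settings. Of the 130-day arrays fetus 2 was the highest for 6 of the 9 oxidative phosphorylation genes, against 24.8% of all features. With both 130-day fetus 3 and term fetus 1 left out 4 of the 9 were called higher. SLC25A33, a carrier that brings pyrimidine nucleotides into mitochondria, rose 2.40-fold, from -1.84 to -0.93 at 130 days to -0.75 to 0.31 at term, by 1.26 ± 0.18 (adjusted p = 0.00342). ENDOG, a mitochondrial nuclease, rose 1.93-fold, by 0.95 ± 0.14 (adjusted p = 0.00393), also without overlap. SLC25A4, SLC25A6, SLC25A33 and ENDOG kept their calls under each of 28 other settings of block, arrays, scaling or filter.

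Glucose handling rose at several steps. SLC2A4 lay at 2.92 to 4.13 (median 3.36) and at 4.17 to 5.02 (median 4.64), and the groups just failed to meet. It rose 2.50-fold, by 1.32 ± 0.23 (adjusted p = 0.00552), and by 1.07, 1.47 and 1.47 on slides 1, 2 and 3. SLC2A1, the carrier that dominates in the fetal heart, changed by -0.19 (adjusted p = 0.685). Of the glycolytic enzymes, ALDOA, the muscle aldolase, rose from a median of 5.28 to 5.74, by 0.55 ± 0.11 (adjusted p = 0.00831), and ENO3, the muscle enolase, from 3.65 to 4.36, by 0.67 ± 0.15 (adjusted p = 0.0127), both without overlap. After quantile normalization ALDOA and ENO3 rose by 0.33 and 0.51, and in the authors' deposited values by 0.30 and 0.48. HK1, a hexokinase bound to mitochondria, rose by 0.56 ± 0.15 (adjusted p = 0.0263) and GAPDH, a central enzyme of glycolysis, by 0.66 ± 0.17 (adjusted p = 0.0222). Both lost their calls without 130-day fetus 1 or term fetus 5, and GAPDH also without 130-day fetus 3 (highest adjusted p = 0.102 for HK1 and 0.0758 for GAPDH). The glycogen phosphorylases PYGL and PYGM, which release glucose from glycogen, rose by 0.69 ± 0.17 (adjusted p = 0.0178) and 0.43 ± 0.13 (adjusted p = 0.0414), and the PYGM call ended in 9 of 14 fits that left 1 array out (highest adjusted p = 0.0995). SLC2A8, an intracellular glucose carrier, rose by 0.42 ± 0.13 (adjusted p = 0.0374), a call that ended in 10 of 14 fits that left 1 array out (highest adjusted p = 0.086).

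Forms of phosphofructokinase, which controls the pace of glycolysis, moved in opposite directions. A probe described as the muscle type lay at 0.77 to 1.07 (median 0.93) at 130 days and at 1.34 to 2.08 (median 1.70) at term, and rose by 0.79 ± 0.13 (adjusted p = 0.00443) with no overlap. A second probe for the same description rose by 0.64 ± 0.15 (adjusted p = 0.0146). Both were chosen from their descriptions after the values were seen. PFKL, the liver type, fell by 0.47 ± 0.15 (adjusted p = 0.0474), a call that ended in 12 of 14 fits that left 1 array out (highest adjusted p = 0.122). The difference between the forms was not tested.

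Fatty acid genes gave 3 calls among 10, all higher, and 9 of 10 changes were positive. Among features with a symbol 13% were called higher. CPT1B, the muscle enzyme that admits long-chain fatty acids to the mitochondria, lay at 2.04 to 2.67 (median 2.28) and at 2.58 to 3.39 (median 2.98), barely overlapping, and rose by 0.64 ± 0.15 (adjusted p = 0.0173). It lost its call without term fetus 5 (adjusted p = 0.0515). LPL, which frees fatty acids from lipoproteins at the vessel wall, ranged from 1.20 to 2.30 and from 1.80 to 2.92, with 130-day fetus 2 at 2.30, and rose by 0.85 ± 0.23 (adjusted p = 0.0259). PLIN5, which couples lipid droplets to mitochondria, rose by 0.93 ± 0.27 (adjusted p = 0.0334). Each of LPL and PLIN5 lost its call in 7 of 14 fits that left 1 array out (highest adjusted p = 0.0705 and 0.086), and without 130-day fetus 3 alone 1 of the 10 genes was called. ACSS2, which activates acetate, rose 2.00-fold, by 1.00 ± 0.24 (adjusted p = 0.0192), with its call lost without term fetus 3 or term fetus 5 (adjusted p = 0.0509 and 0.0644). APOA1, the main protein of high-density lipoprotein, fell 2.36-fold, by 1.24 ± 0.28 (adjusted p = 0.0152), and without both 130-day fetus 3 and term fetus 1 its adjusted p was 0.0727.

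**Figure D5:**
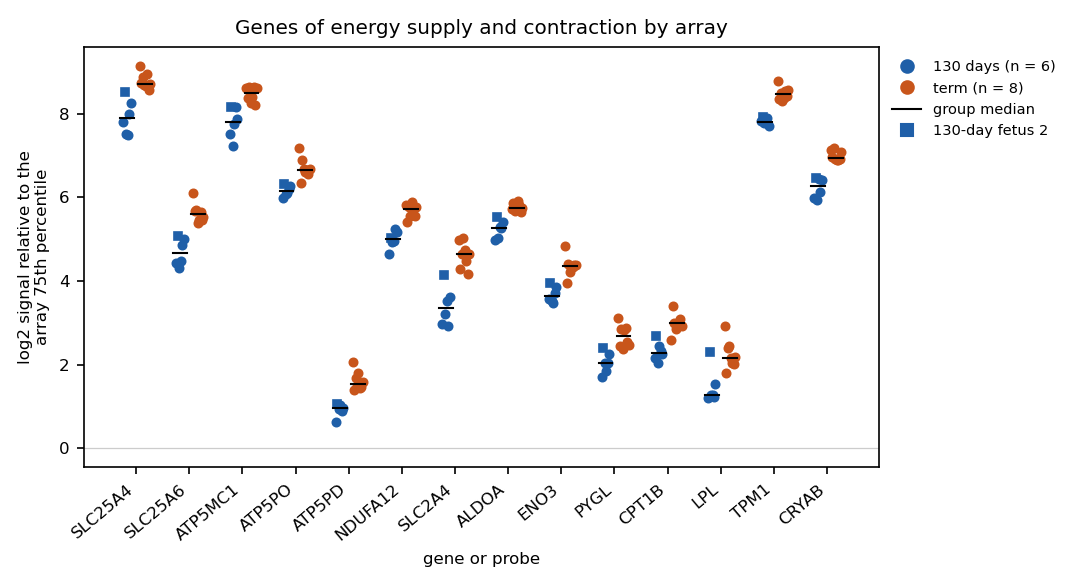
Log2 signal minus the 75th percentile of its array (vertical) for genes of energy supply and contraction (horizontal), 1 point per array, 6 at 130 days in blue and 8 at term in orange, with group medians as lines and 130-day fetus 2 as a square. SLC2A4 rises from a median of 3.36 to 4.64 and SLC25A6 from 4.67 to 5.60, and the ages overlap for PYGL, CPT1B and LPL.

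Of 11 measured genes of the sarcomere list 3 were called higher and 1 lower, beside 13% and 10.5% of features with a symbol. Besides contractile proteins that list holds proteases, CRYAB and MB. Of its contractile protein genes only TPM1 was called. TPM1, the tropomyosin that blocks myosin sites on actin, was tightly grouped at 7.70 to 7.91 (median 7.80) and at 8.30 to 8.79 (median 8.47), and rose without overlap by 0.64 ± 0.10 (adjusted p = 0.00396). After quantile normalization the change was 0.25 and did not pass (adjusted p = 0.0777), and in the authors' deposited values it was also 0.25 (adjusted p = 0.0396), so the size of the rise depends on the scaling. CRYAB, a small heat shock protein that guards desmin and titin, lay at 5.94 to 6.46 and at 6.89 to 7.17, and rose by 0.79 ± 0.13 (adjusted p = 0.00445). The rise of CRYAB was 0.59 after quantile normalization and 0.49 in the authors' deposited values. MB, myoglobin, the oxygen store of muscle, rose by 0.46 ± 0.13 (adjusted p = 0.0319), but by 0.01 (adjusted p = 0.972) in the authors' deposited values, and its call ended in 6 of 14 fits that left 1 array out (highest adjusted p = 0.0883). CAPN3, a muscle calpain that binds titin, fell without overlap by 1.13 ± 0.31 (adjusted p = 0.0303), a call that ended in 7 of 14 fits that left 1 array out (highest adjusted p = 0.0697). ATP1B1, the beta subunit of the sodium pump, rose from a median of 5.39 to 5.88 without overlap, by 0.50 ± 0.11 (adjusted p = 0.0129), and did not pass after quantile normalization (adjusted p = 0.0709).

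Of 19 measured genes of the steroid and thyroid list 1 was called, beside 23.5% of features with a symbol and 18.4% of all. That gene was HSD11B1, which regenerates cortisol from cortisone inside cells. It ranged from -3.16 to -2.21 (median -2.63) at 130 days and from -2.18 to -0.89 (median -1.74) at term. The groups lay side by side without overlap, and it rose 2.08-fold, by 1.06 ± 0.19 (adjusted p = 0.00627). HSD11B2, which inactivates cortisol, overlapped widely, at -6.14 to -4.48 and -6.00 to -0.12, and did not pass (change 1.87 ± 0.79, adjusted p = 0.115). The glucocorticoid receptor NR3C1 changed by 0.18 ± 0.16 (adjusted p = 0.467).

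Further rises came from genes of other functions. TUBA4A, an alpha tubulin, lay at -1.64 to 0.97 (median -0.47) and at 1.01 to 2.02 (median 1.21), and rose 3.26-fold, by 1.70 ± 0.29 (adjusted p = 0.00542). PDXK, which makes the active form of vitamin B6, rose by 1.09 ± 0.19 (adjusted p = 0.00559), without overlap. ALDH1A1, which makes retinoic acid from retinal, had medians of 1.78 and 3.17, overlapped slightly, and rose 2.87-fold, by 1.52 ± 0.34 (adjusted p = 0.0133). The proteasome list had 3 of 9 genes called higher and 0 lower, beside 13% and 10.5% of features with a symbol. PSMD4, a ubiquitin receptor of the cap, rose by 0.48 ± 0.11 (adjusted p = 0.0168), PSMB7 of the catalytic ring by 0.37 ± 0.09 (adjusted p = 0.0213) and PSMA6 of the outer ring by 0.45 ± 0.12 (adjusted p = 0.0285). PSMB7 lost its call without 130-day fetus 1 (adjusted p = 0.0594), and PSMA6 without 130-day fetus 1 or 3 or term fetus 3 (highest adjusted p = 0.0758).

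Some rises lay close to background, where the higher background of the term arrays relative to their percentile moves in the same direction, and its part in them was not tested. FGFR2, a fibroblast growth factor receptor, rose by 1.07 ± 0.19 (adjusted p = 0.00605), with 3 of 6 arrays at 130 days and 7 of 8 at term well above background. MLN, motilin, rose by 1.49 ± 0.25 (adjusted p = 0.00462), NOG, the BMP antagonist noggin, by 0.81 ± 0.18 (adjusted p = 0.0149) and MMP13, a collagenase, by 0.64 ± 0.12 (adjusted p = 0.00749). NOG lost its call without term fetus 5 (adjusted p = 0.0548), when its probes were averaged and with all 22 arrays, and its other probe changed by 0.18 ± 0.26. The other MLN probe changed by 0.46 ± 0.28, and MLN lost its call with all 22 arrays, where that probe was the brighter (adjusted p = 0.527). Of 4 lung epithelium markers 3 were called higher, the surfactant genes SFTPD by 0.67 ± 0.14 (adjusted p = 0.0126), SFTPA1 by 0.62 ± 0.14 (adjusted p = 0.0133) and SFTPB by 0.63 ± 0.19 (adjusted p = 0.0387). Their levels ran from -5.86 to -2.98 over both ages, the SFTPB call ended in 9 of 14 fits that left 1 array out (highest adjusted p = 0.0945), and SFTPD and SFTPA1 did not pass when all probes of a gene were averaged.

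ASIP, known for its part in coat colour and expressed in several tissues of sheep, lay at 4.83 to 5.27 (median 5.12) and at 5.09 to 5.68 (median 5.35). It did not pass (change 0.33 ± 0.11, adjusted p = 0.0543), and the change was 0.08 (adjusted p = 0.573) in the authors' deposited values.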

How the data were processed

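Per the file headers, the deposited files hold scanner output from Agilent Feature Extraction 10.1.1.1, and the processed signal taken from them is an intensity after background subtraction. A deposited log2 table covers 10089 probes, and the submitters' processing notes name limma with no version. Its columns had medians of 8.77 to 8.80 and correlated with the scanner values at 0.984 to 0.99, and its normalization steps are not given in the sources used here. The genome build is likewise not given in the sources used here, and no positions are printed.

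The log2 of the processed signal had the array's 75th percentile subtracted, after control spots and outlier spots (2 to 18 per array) were left out. No spot was saturated (0 of 15208). Of 15008 probes 1482 carried 1 symbol, from the files' own names or from RefSeq names, among which 743 of 780 accessions were found. The 14 probes with several symbols were left unnamed. The brightest probe stood for a gene, and of the other probes of called genes 91 of 96 changed with the same sign. A feature was tested if at least a 0.5 share of the arrays of either group had it well above background, 12278 of 14434. The ages were compared by lmFit and eBayes of limma 3.58.1 under R 4.3.3 (slide as a fixed block, 9 residual degrees of freedom, two-sided) and Benjamini-Hochberg adjustment over all features. Tables were read with pandas 2.3.3 and the data.table package (version 1.17.8), with Python 3.11.15, and plotted with matplotlib 3.10.9. The number of arrays limits the precision.

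The comparison, the gene lists and the members were chosen with earlier results of these data known. The rule for named genes allowed the 15 largest rises and the 15 largest falls with a symbol that were above background on that share of both groups, up to 5 bounded changes each way, the 4 largest called changes each way of a list (the lowest p where none was called) and a panel of heart genes. Not every gene it allows is named. A further 18 were picked outside this rule once their values were known: IRF3, MX2, ITGB2, FCER1G, CD40, CD3E, C5AR1, LGALS1, ALDOA, HK1, GAPDH, SLC2A8, ATP5PO, COX5A, VDAC1, NDUFA12, CYBA and SMAD2. SLC25A5, SLC2A1, SC5, CD14, ITGAM, ATP5MC2 and the interferon receptor genes also lie outside it. Some called genes are not described because their calls proved unstable, and some are not reported here. Promoter motifs were not analysed here.

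The alternatives were other blocks, arrays, scalings, background corrections, probe filters, weights, the deposited log2 values and leaving out each array, and 2 were added after the data were seen. In data simulated from these arrays, 200 of 12278 features were changed, and normal noise was drawn for each feature on its own. Of changes of 0.5, 1 and 2 (log2), 26.9%, 82.1% and 100% were recovered, and 2.11% of 142 calls were false. In the real data more features were called and some arrays stood apart in many genes at once, so these rates need not hold there.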

Additional observations from a re-analysis of the deposited data

Results flagged for a closer look

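In groups of 6 and 8 arrays, 23 of 192 groups of values had their highest or lowest array set apart from the rest by more than the 95% limit of Dixon's test. Chance flags about 1 group in 20. At 130 days, fetus 3 stood apart as the highest for MX1 (3.86, next 1.32), MX2 (2.72), CTSS (1.62), CD86 (-1.38) and FCER1G (0.36), all genes of interferon response or white blood cells. Fetus 2 of that age stood apart as the lowest for IGFBP2 (1.59, next 3.46), INHBA (-1.62) and PFKL (-1.57) and as the highest for SLC25A33 (-0.93), LPL (2.30) and PLIN5 (-2.02), in each case on the side of the term fetuses. Fetus 4 was set apart as the highest for DCN (5.99), and fetus 5 as the lowest for TGFBR2 (-2.44).

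Term fetus 1 was set apart as the lowest for IGF2 (3.03, next 5.89), IGF2R (-1.30) and TGFB1 (-4.33) and as the highest for MMP13 (-4.28), SLC25A6 (6.11) and PSMA6 (4.99). Term fetus 2 was the lowest for MHCII-DRB1 (-3.62) and SMAD2 (-1.35), term fetus 4 the lowest for SFTPD (-4.97) and term fetus 3 the highest for HSD11B2 (-0.12, next -3.34). The reasons were not tested.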

How the results depend on the processing

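Of the 96 named genes 89 were called, and 2057 of 2485 refits of these under other settings kept the call, while 428 ended it and none turned a direction. Calls held in every such refit for 26 genes. Of the named calls, 37 ended with all 22 arrays, 13 without the slide block, 12 after quantile normalization, 11 in the deposited values and 7 after normexp correction. The 2261 calls (1291 higher, 970 lower; list members 58 higher, 55 lower) became 1286 (745, 541; 31 list members lower) on slides 1 to 3 alone, 1126 (518, 608; 29 list members higher) with all 22 arrays, and 1100 (620, 480; list members 30 and 28) without 130-day fetus 3 and term fetus 1. Normexp correction gave 2324 higher and 90 list members higher. Without single arrays the calls ran from 1100 (without 130-day fetus 1) to 2605 (without 130-day fetus 2), higher 638 to 1458, lower 462 to 1159, list members higher 31 to 69 and lower 28 to 62. With a probe filter requiring signal above background on all 14 arrays, 2289 of 10636 features were called. The cause of these shifts was not tested.

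A replicate block in place of the slide gave 915 calls (486 higher, 429 lower; list members 26 higher and 25 lower) and ended the calls of 44 named genes. Same-numbered fetuses did not deviate together (correlations -0.171 to 0.07, 0 of 6 best with its own number). No pairing by number was seen, but a weak one could be missed with 6 numbers and the slide not removed. Probes near background limit what can be said of dim genes.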

Other observations

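Probes without a single gene symbol were named by the descriptions in the array files, after the values were seen. The 2 probes for a regakine-1-like protein, a chemokine of cattle and sheep blood, fell by 2.79 and 2.79 (limma, adjusted p = 0.00396 and 0.00493), with 130-day fetus 3 the highest at 2.46 and 2.22. An interferon-induced protein described as 1-8U fell by 1.05 ± 0.27 (adjusted p = 0.024), and protein S100-A4 by 0.89 (adjusted p = 0.037). Of 26 measured immunoglobulin probes, out of 70 on the array, 1 was called higher and 1 lower, and their median change was -0.10. Of 6 collagen probes 1 was called lower, described as alpha 2(V), by 0.83 (adjusted p = 0.00606), and 5 of 6 changes were negative.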
